A study of Mus musculus with 6 samples.

Results

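Classical MHC class I presentation is the route by which almost every nucleated cell displays fragments of its own proteins to CD8 T cells. Proteins are cut by the proteasome, the fragments are pumped into the endoplasmic reticulum by the TAP transporter, and a loading complex held together by tapasin fits them into the groove of a class I heavy chain paired with β2-microglobulin. Interferon is well known to raise most of these genes together and to exchange the catalytic subunits of the proteasome for inducible ones, and NLRC5 is the transactivator dedicated to class I promoters. The 10 genes described here were chosen by symbol as the class I chains (H2-K1, H2-D1 and B2m), peptide transport and loading (Tap1, Tap2 and Tapbp), the transactivator (Nlrc5) and the inducible proteasome subunits (Psmb8, Psmb9 and Psmb10). Each symbol matched 1 gene among the 78298 genes of the deposited table, and all 10 passed the filter on low counts.

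The samples were RENCA cells, an established mouse renal adenocarcinoma line that arose in a BALB/c mouse. In the oe-AQP1 group (3 samples) the cells had been transduced with a lentiviral vector carrying mouse Aqp1 under the ubiquitin C promoter, and in the oe-NC group (3 samples) with the matching empty vector. Selection of both groups began 48 h later and lasted 14 days, with puromycin at 2 μg/mL, and the labels name no further treatment. No untransduced cells were included. The labels call the samples biological replicates of batch 1 and do not say whether each came from its own transduction. A difference between the 2 transduced populations and an effect of AQP1 therefore cannot be told apart if each group was derived once.

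The delivered gene matched the labels, with 7713, 8545 and 7838 counts of Aqp1 in the oe-AQP1 samples and 41, 25 and 45 in the oe-NC samples. Each sample held between 18385714.02 and 21920898.67 expected read counts. Sample 1 of oe-NC stood apart from the other controls. A chi-square comparison of counts gave 9.54 and 11.1 per gene for its pairs with samples 2 and 3, against 1.71 to 2.04 for every other pair within a group. Where a call named here changed without this sample, the change is stated. Not every log2FC that moved is given both ways. That of Tapbp, for example, was 1.46 with this sample and 1.54 without it, and that of Psmb7 was 0.01 and -0.05. RNA of leukocytes, which express class I genes strongly, was sparse in these cells. Of 12 leukocyte markers 8 had at most 3 counts in any sample, among them Ptprc, Cd3e, Itgam and Adgre1, the last of these at 0 in all samples. The summed level of the 12 was 48.8 to 51.8 CPM (counts relative to the TMM-corrected library size) in oe-AQP1 and 57.1 to 59.8 CPM in oe-NC, nearly all of it from Cd68, Lyz2 and Csf1r. The last 2 fell in oe-AQP1 cells (log2FC = -0.52 and -1.51). The renal markers Pax8, Pax2, Krt8, Krt18, Cdh16 and Lrp2 were present in both groups, and Epcam was at 0 in all samples. Of 7 renal markers tested, 4 fell in oe-AQP1 cells, Lrp2 (log2FC = -0.93), Cdh16 (log2FC = -0.63), Krt8 (log2FC = -0.41) and Krt18 (log2FC = -0.27). By the same test, described below, 16.6% of all genes were called lower. The summed level of the renal list was 842 to 874 CPM in oe-AQP1 against 1027 to 1141 CPM in oe-NC samples. The part of this shift in the results below was not tested. Without control sample 1, Pax2 also passed, as higher (log2FC = 0.25 with it and 0.41 without it).

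Promoter sequences are shown first because the chain genes carry a shared arrangement of short motifs that regulators of class I transcription are known to bind. Windows of 300 bases around the start site were found in RefSeq for 8 of the 10 genes, and Tap2 and Nlrc5 had none. The sequences were taken from the RefSeq table for GRCm38.p6, placed in GRCm39 by an exact match, and run 5′ to 3′ on the strand of the gene. All stretches shown lie upstream of a RefSeq start site, although GENCODE M39 places 71 of the 135 bases shown for H2-K1, and all of those shown for the other genes, inside exons of longer transcripts. They are those of the C57BL/6 reference. BALB/c cells carry another H2 haplotype, so the RENCA alleles may differ from them. In the first 3 sequences the capitals mark GGG and CC with any 5 bases between them (an NF-κB type site), TGACG (the core of a CREB type site), CCAAT or its complement ATTGG (the NF-Y box) and, in B2m, GAAA repeated after any 2 bases (the core of the interferon-stimulated response element). In H2-K1 and H2-D1 the second stretch of capitals holds overlapping NF-κB type matches, and each match there reads on both strands. The H2-K1 stretch lies at chr17:34219322-34219456 on the reverse strand, that of H2-D1 at chr17:35481875-35482009 on the forward strand and that of B2m at chr2:121978019-121978130 on the forward strand.
H2-K1: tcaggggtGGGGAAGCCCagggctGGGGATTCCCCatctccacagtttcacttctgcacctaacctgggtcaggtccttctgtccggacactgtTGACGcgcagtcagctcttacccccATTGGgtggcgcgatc
H2-D1: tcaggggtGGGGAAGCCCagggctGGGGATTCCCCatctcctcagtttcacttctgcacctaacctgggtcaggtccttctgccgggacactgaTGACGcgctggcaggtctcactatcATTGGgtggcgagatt
B2m: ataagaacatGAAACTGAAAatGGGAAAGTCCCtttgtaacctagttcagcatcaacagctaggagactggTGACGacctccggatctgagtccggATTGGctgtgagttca

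The heavy chain promoters were similar but not identical. Lined up on the NF-κB type site, 166 of 190 upstream bases matched (87.4%), and the longest run shared without a mismatch was 47 bases. In all 3 chain genes exactly 20 bases separated TGACG from ATTGG. This spacing was noticed after the sequences had been read, and it was then searched on both strands of the promoters of 27025 genes, of which 26 held it (0.0962%). Among the other class I genes listed for comparison, 10 had a RefSeq window and 1 of these, H2-M3, held it. Taken singly, the motifs were common. The NF-κB type site was found in 5 of the 8 members and 50.4% of all promoters, CCAAT in 6 of 8 and 37.9%, and TGACG in 5 of 8 and 21.0%. The windows of Tap1 and Psmb9 share 275 bases, and the same CCAAT and TGACG sites are counted for both genes. With the likeness of H2-K1 and H2-D1, the 8 windows are therefore not independent. In the exact form given above, the interferon-response core was found in B2m alone (3.49% of all promoters). Other forms of that element were not searched, so the promoters without a match were not shown to lack it. The STAT type site TTCNNNGAA was found in Psmb8 alone (8.47%). A match describes the letters in the window and does not show that a factor binds there.

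Tap1 and Psmb9 stand head to head, and their RefSeq start sites are 226 bases apart. The bases between them are shown because a single stretch serves both genes. They lie at chr17:34406305-34406529 and are written in the direction of Tap1, with CCAAT and TGACG in capitals.
Tap1 and Psmb9: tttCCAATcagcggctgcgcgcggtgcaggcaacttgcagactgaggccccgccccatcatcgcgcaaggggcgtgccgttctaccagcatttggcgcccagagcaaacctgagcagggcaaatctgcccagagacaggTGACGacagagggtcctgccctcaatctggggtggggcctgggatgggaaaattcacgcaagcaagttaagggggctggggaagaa

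All 10 genes were higher in oe-AQP1 than in oe-NC cells. The increases ran from 1.75-fold for B2m to 5.15-fold for Psmb10, smallest for the class I chains, intermediate for transport and loading, and largest for Psmb9 and Psmb10. The groups were compared by limma-voom across 15522 genes, where FDR is the Benjamini-Hochberg adjusted p-value and log2FC the change on the log2 scale, positive where oe-AQP1 was higher. At an FDR under 0.05, 10 of 10 members were higher, against 16.0% of all genes tested (32.5% were called in either direction). The members were chosen with earlier results of these data known, so this contrast is a description and not an independent test. Of the 10, 8 were also DEGs (FDR under 0.05 and absolute log2FC above 1), against 4.39% of all genes that were DEGs in that direction and 0.844% in the other. H2-D1 and B2m stayed under the fold threshold. The lowest oe-AQP1 sample exceeded the highest oe-NC sample for each of the 10 genes, as it did for 23.5% of all genes tested. The median log2FC of the members was 1.52, and that of all genes was 0.002. Together the 10 genes took 0.399% to 0.42% of all counts in the oe-NC samples and 0.853% to 0.874% in the oe-AQP1 samples. For any single gene, an exact permutation test of 3 samples against 3 cannot give a p below 0.1. Because these are bulk samples, more RNA per cell and more cells expressing a gene cannot be told apart.

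**Figure D1:**
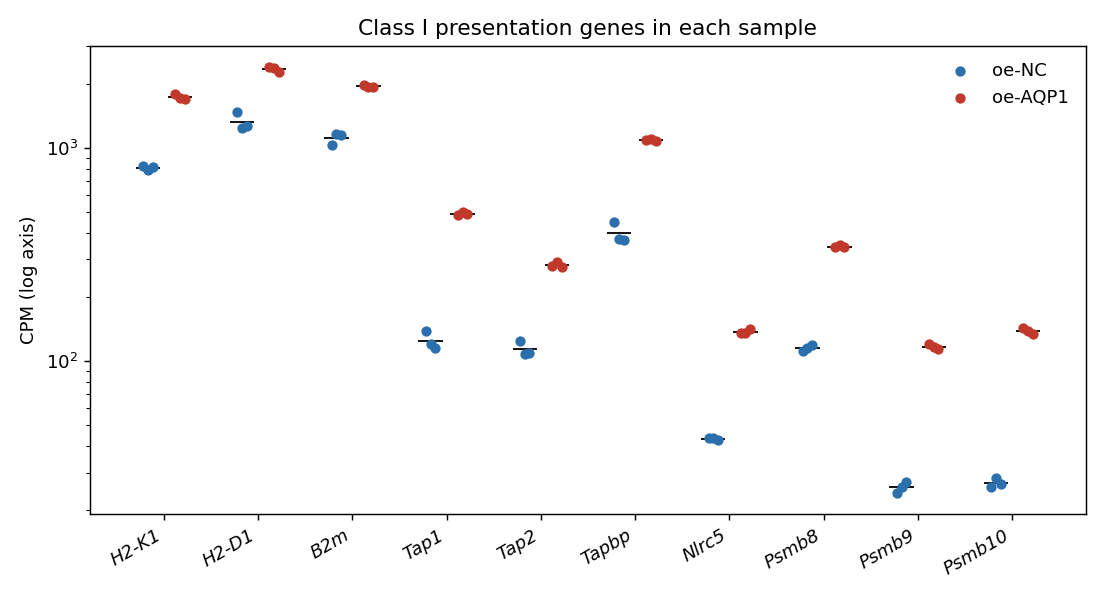
Level of each of the 10 genes in the 6 samples, in CPM on a log axis, with oe-NC in blue and oe-AQP1 in red. Points are samples and bars are group means (n = 3), and for every gene the 3 red points lie above the 3 blue points.

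H2-K1 and H2-D1 encode the classical class I heavy chains of the mouse, which hold the peptide. H2-K1 (ENSMUSG00000061232, chromosome 17, 34214987 to 34219321 of GRCm39) stood at 1782, 1717 and 1703 CPM in oe-AQP1 samples 1 to 3 and at 818, 786 and 816 CPM in oe-NC samples 1 to 3. All oe-AQP1 samples were more than double any control, and H2-K1 was the one chain gene that qualified as a DEG (log2FC = 1.10, standard error 0.0319, FDR = 1.94e-09). H2-D1 (ENSMUSG00000073411, chromosome 17, 35481691 to 35486475) stood at 2388, 2367 and 2275 CPM in oe-AQP1 samples and at 1474, 1241 and 1264 CPM in oe-NC samples. Control sample 1 was the highest of the controls and still far below the oe-AQP1 samples. The log2FC of H2-D1 was 0.82 (standard error 0.0564, FDR = 2.21e-06), and without that control sample it was 0.90. The proportion of the 2 genes differed between the groups in these samples. The log2 ratio of H2-K1 to H2-D1 was -0.43 ± 0.02 in oe-AQP1 and -0.71 ± 0.12 in oe-NC cells (SD, n = 3). The groups did not overlap (exact two-sided permutation p = 0.1, the smallest possible, and 0.12 after adjustment over the 6 ratios tested). The difference in this log2 ratio was 0.28 with control sample 1 and 0.21 without it.

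B2m (ENSMUSG00000060802, chromosome 2, 121977957 to 121983594) encodes β2-microglobulin, the invariant light chain without which heavy chains do not reach the surface. Its level was 1974, 1921 and 1938 CPM in oe-AQP1 samples and 1028, 1167 and 1143 CPM in oe-NC samples. Here control sample 1 was the lowest of the controls, the opposite of its place for H2-D1. The log2FC was 0.81 (standard error 0.044, FDR = 3.61e-07) and fell to 0.75 without that sample. The increases of B2m and H2-D1 were the smallest of the 10, with overlapping 95% intervals of 0.71 to 0.91 and 0.70 to 0.95. Their order turned without control sample 2 (B2m 0.84 and H2-D1 0.78 on the log2 scale) and without control sample 3 (0.83 and 0.79).

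The counts of the heavy chains are less certain than those of B2m. Of the different 50-base stretches in their annotated transcripts, 22.9% for H2-K1 and 27.6% for H2-D1 also occur in transcripts of other genes, against 0% for B2m and Psmb10 and 0.34% for Nlrc5. For H2-K1, 710 of the 966 shared stretches occur in the antisense RNA gene Gm53999 (122.7 counts on average), and for H2-D1, 594 of 1033 occur in the antisense RNA gene 5430410E06Rik (19.03 counts). The 2 chains share 263 stretches with each other, H2-K1 shares 247 with H2-Q4, and H2-D1 shares 155 with H2-Q6. Their expected counts were fractional in all 6 samples, as where a counter divides reads among genes, while those of B2m, Nlrc5 and Psmb10 were whole in all 6. Reads of the BALB/c alleles were also aligned to a C57BL/6 reference, which lacks the H2-L gene of that haplotype. How this moved the levels of H2-K1 and H2-D1 was not tested.

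Tap1 and Tap2 encode the subunits of the peptide pump. Tap1 (ENSMUSG00000037321, chromosome 17, 34405996 to 34416199) stood at 483, 499 and 492 CPM in oe-AQP1 samples and at 138, 121 and 115 CPM in oe-NC samples. Its log2FC of 1.98 (standard error 0.0571, FDR = 1.87e-09) corresponds to a 3.96-fold higher level. Tap2 (ENSMUSG00000024339, chromosome 17, 34422501 to 34435829) stood at 279, 291 and 276 CPM in oe-AQP1 samples and at 124, 108 and 109 CPM in oe-NC samples (log2FC = 1.31, standard error 0.0547, FDR = 4.00e-08). The increase of Tap1 was the larger of the 2. The log2 ratio of Tap1 to Tap2 was 0.80 ± 0.03 in oe-AQP1 and 0.13 ± 0.05 in oe-NC cells (SD, n = 3), a 1.59-fold difference without overlap (exact permutation p = 0.1, adjusted 0.12).

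Tapbp (ENSMUSG00000024308, chromosome 17, 34134873 to 34148267) encodes tapasin, which bridges TAP to the waiting heavy chain. It stood at 1086, 1099 and 1079 CPM in oe-AQP1 samples and at 447, 376 and 371 CPM in oe-NC samples, a 2.74-fold increase (log2FC = 1.46, standard error 0.0598, FDR = 3.52e-08). Control sample 1 was again the highest control, as it was for Tap1 and Tap2. Of the 50-base stretches of Tapbp, 41.0% occur in other transcripts, mostly those of the overlapping antisense gene Gm19412 (110.1 counts on average over the 6 samples) and of the neighbour Zbtb22 on the same strand (565.2 counts). The counts of both were small beside the 6863 to 24160 counts of Tapbp. They are what the counter assigned, however, and do not bound how many reads were assigned to the wrong gene. Counts of Tapbp were also fractional in all 6 samples.

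Nlrc5 (ENSMUSG00000074151, chromosome 8, 95160984 to 95253900) encodes the transactivator that acts with RFX, CREB and NF-Y factors at class I promoters. It stood at 135, 135 and 141 CPM in oe-AQP1 samples and at 43.6, 43.4 and 42.6 CPM in oe-NC samples. These were the tightest controls of the 10 genes, with an SD of 0.544 CPM around a mean of 43.2. The log2FC was 1.67 (standard error 0.0436, FDR = 8.57e-10), a 3.17-fold increase, which was larger than those of the chains and smaller than those of Tap1, Psmb9 and Psmb10. No source used here measures NLRC5 protein or its binding.

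Psmb8, Psmb9 and Psmb10 encode the inducible catalytic subunits, which replace Psmb5, Psmb6 and Psmb7 of the standard proteasome when new particles are assembled. Psmb8 (ENSMUSG00000024338, chromosome 17, 34416690 to 34420428) stood at 342, 349 and 342 CPM in oe-AQP1 samples and at 111, 116 and 119 CPM in oe-NC samples (log2FC = 1.58, standard error 0.0383, FDR = 4.61e-10). Psmb9 (ENSMUSG00000096727, chromosome 17, 34400960 to 34406738) stood at 121, 116 and 114 CPM in oe-AQP1 samples and at 24.2, 25.7 and 27.1 CPM in oe-NC samples (log2FC = 2.19, standard error 0.0566, FDR = 7.72e-10). Psmb10 (ENSMUSG00000031897, chromosome 8, 106662362 to 106665077), which lies outside the MHC, stood at 143, 138 and 134 CPM in oe-AQP1 samples and at 25.8, 28.2 and 26.6 CPM in oe-NC samples (log2FC = 2.37, standard error 0.0534, FDR = 2.97e-10). Psmb10 therefore had the largest increase of the 10 genes and ranked 183 by log2FC among the 15522 genes tested, and Psmb9 ranked 217.

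The standard subunits did not pass the test. Psmb5 stood at 73.3 to 77.3 CPM in oe-AQP1 and at 74.5 to 88.9 CPM in oe-NC samples (log2FC = -0.13, 95% interval -0.27 to 0.01, FDR = 0.146). Psmb6 stood at 136 to 141 and at 134 to 140 CPM (log2FC = 0.02, 95% interval -0.07 to 0.10, FDR = 0.793), and Psmb7 at 307 to 309 and at 280 to 322 CPM (log2FC = 0.01, 95% interval -0.10 to 0.13, FDR = 0.881). Without control sample 1, Psmb5 passed the test as lower (log2FC = -0.20, FDR = 3.99e-04). The balance of each pair was compared as a log2 ratio of CPM within samples. Counts of Psmb5, Psmb7 and Psmb9 were fractional in all 6 samples, and how divided reads moved these ratios was not tested. The ratio of Psmb8 to Psmb5 was 2.14, 2.25 and 2.20 in oe-AQP1 samples and 0.57, 0.48 and 0.42 in oe-NC samples, a 3.26-fold shift. That of Psmb9 to Psmb6 was -0.20, -0.28 and -0.26 against -2.45, -2.40 and -2.35, a 4.44-fold shift. That of Psmb10 to Psmb7 was -1.10, -1.16 and -1.19 against -3.41, -3.46 and -3.57, a 5.03-fold shift. In none of the 3 pairs did the groups overlap (exact permutation p = 0.1 each, adjusted 0.12).

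**Figure D2:**
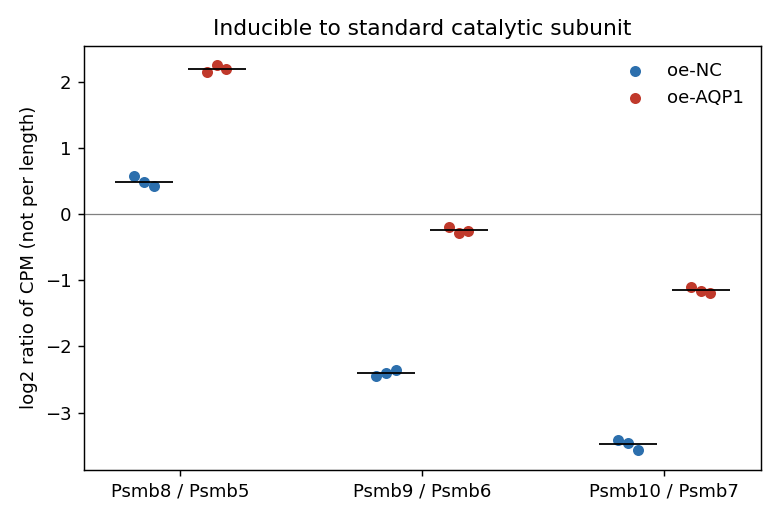
Log2 ratio of CPM of each inducible proteasome subunit to the standard subunit it replaces, in each sample, with oe-NC in blue, oe-AQP1 in red and bars at the group means (n = 3). All 3 ratios are higher in the oe-AQP1 samples, by 1.70, 2.15 and 2.33 on the log2 scale.

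For Tap1 and Psmb9, whose shared promoter is shown above, the log2 ratio was 1.99, 2.10 and 2.11 in oe-AQP1 samples and 2.49, 2.21 and 2.07 in oe-NC samples. The groups overlapped and differed by -0.19 (exact two-sided permutation p = 0.3), which does not show that the proportion was the same. The difference was -0.07 without control sample 1. Without control sample 3 it was -0.28, and the groups then did not overlap (exact permutation p = 0.1, the smallest possible). Their annotated exons overlap over 743 bases on opposite strands, and no source used here states whether strand was used in counting. Reads from the overlap cannot be assigned with certainty, and the counts of both genes were fractional in all 6 samples.

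Levels can be compared between genes only per length, for which TPM values (the share of transcripts after division by length) were computed from the length of the canonical transcript. In oe-NC cells B2m came first at 2351 ± 110.5 TPM, followed by H2-D1 at 1441 ± 173 TPM and H2-K1 at 1145 ± 42.9 TPM (SD, n = 3). Tapbp followed at 307 ± 40.3, Psmb8 at 155 ± 2.15 and Tap1 at 92.3 ± 11.0 TPM. The lowest were Tap2 at 65.8 ± 6.87, Psmb10 at 47.0 ± 1.64, Psmb9 at 43.5 ± 1.55 and Nlrc5 at 13.1 ± 0.433 TPM. No neighbours in this order overlapped. In oe-AQP1 cells the first 6 places and the last were unchanged, from B2m at 4185 ± 43.2 to Nlrc5 at 42.3 ± 1.18 TPM, but the samples of H2-D1 (2523 to 2623 TPM) and H2-K1 (2469 to 2559 TPM) overlapped. Tap2 fell behind both subunits, with 166 ± 4.85 TPM against 246 ± 6.44 for Psmb10 and 202 ± 5.41 for Psmb9. With the summed length of all annotated exons in place of the canonical transcript, the first 5 places and the last were the same in both groups, the samples of B2m and H2-D1 overlapped in oe-NC cells, and Tap1 and Tap2 exchanged places there and overlapped. In oe-AQP1 cells Tap2 then lay above Psmb9 (238 against 124 TPM), and the samples of Tap1 and Psmb10 overlapped.

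On the same per-length scale, Psmb8 exceeded Psmb5 in both groups, at 473 against 103 TPM in oe-AQP1 and 155 against 111 TPM in oe-NC cells. Psmb9 stayed under Psmb6 in both, at 202 against 313 TPM and 43.5 against 305 TPM. Psmb10 stood at 246 TPM against 620 for Psmb7 in oe-AQP1 cells and at 47.0 against 604 in oe-NC cells, but with the summed exon length the order in oe-AQP1 cells was the other way round (322 against 206 TPM). By the summed length Psmb8 also lay under Psmb5 in oe-NC cells (131 against 177 TPM) and above it in oe-AQP1 cells (406 against 168 TPM), while Psmb9 stayed under Psmb6 in both groups.

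Beyond the 10 genes, the change was unevenly spread over the class I pathway. In the loading and trimming list, 2 of 7 genes rose, 3 fell and 2 did not pass the test, with a median log2FC of -0.03 (of all genes tested, 16.0% were called higher and 16.6% lower). Tapbpl, which encodes the tapasin relative that edits peptides (33.4 ± 0.656 against 14.1 ± 1.12 CPM, log2FC = 1.24, FDR = 4.94e-07), and Erap1, the peptidase that trims peptides in the endoplasmic reticulum (94.1 ± 2.63 against 63.8 ± 4.09 CPM, log2FC = 0.56, FDR = 2.74e-05), were higher in oe-AQP1 cells. The general chaperones behaved otherwise. Canx (calnexin, log2FC = -0.29, FDR = 2.99e-04) and Uggt1, the glycoprotein folding sensor (log2FC = -0.49, FDR = 3.13e-06), fell, as did the peptidase gene Lnpep (log2FC = -0.37, FDR = 0.00258). Calr (log2FC = 0.07, FDR = 0.109) and Pdia3 (log2FC = -0.03, FDR = 0.621), the calreticulin and disulfide isomerase genes of the loading complex, did not pass. Without control sample 1 both did, Calr as higher (log2FC = 0.08, FDR = 1.36e-04) and Pdia3 as lower (log2FC = -0.06, FDR = 0.00461), so that 3 genes of this list were higher and 4 lower.

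Among the standard catalytic subunits, proteasome activators and the assembly factor, 2 of 8 genes rose and 6 did not pass the test, with a median log2FC of -0.02 (16.0% of all genes tested were called higher). Both that rose encode subunits of the interferon-inducible PA28 activator. Psme1 stood at 137, 139 and 142 CPM in oe-AQP1 and 60.9, 63.5 and 66.2 CPM in oe-NC samples (log2FC = 1.13, FDR = 2.48e-08), and Psme2 at 186, 182 and 192 against 80.3, 90.5 and 97.0 CPM (log2FC = 1.07, FDR = 5.63e-07). The other activators, Psme3 (log2FC = -0.05) and Psme4 (log2FC = -0.05), and Pomp, which assembles new proteasomes (log2FC = -0.10, FDR = 0.117), did not pass. Without control sample 1, 4 genes of this list passed as lower, Psmb5, Psme3, Psme4 and Pomp, none by more than 0.20 on the log2 scale, and the log2FC of Psme2 was 0.99, under the fold threshold. Of 6 cytosolic peptidases 2 fell, Npepps (log2FC = -0.29, FDR = 7.92e-04) and Thop1 (log2FC = -0.25, FDR = 0.0411), 4 did not pass, and the median log2FC was -0.09 (16.6% of all genes tested were called lower). Between 1 and 4 of them passed as lower when single samples were left out, with 4 without control sample 1, where the log2FC of Thop1 was -0.14.

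Of 14 genes for regulators of class I transcription 6 rose, 1 fell and 7 did not pass, with a median log2FC of 0.19 (of all genes tested, 16.0% were called higher and 16.6% lower). The largest increase was that of Stat2 (447 ± 7.79 against 115 ± 3.45 CPM, log2FC = 1.97, FDR = 8.79e-11). Irf1 (66.0 ± 2.84 against 24.5 ± 0.594 CPM, log2FC = 1.43, FDR = 2.54e-08), named here after its values had been seen, was also a DEG. Irf2, Irf9 and Rfx5 rose as well, with log2FC of 0.63 to 0.77. Rfx5 is the DNA-binding subunit of the RFX complex through which NLRC5 is recruited, and its partners Rfxap (log2FC = 0.01, FDR = 0.965) and Rfxank (log2FC = -0.23, FDR = 0.0789) did not pass. Nfya was the one gene that fell (log2FC = -0.15, FDR = 0.0374), a call that was lost with 4 of the 10 alternative settings and without each of 4 samples (every oe-AQP1 sample and control sample 2). Rela (log2FC = 0.20, FDR = 0.0696), Nfkb1 (log2FC = -0.05, FDR = 0.491) and Creb1 (log2FC = 0.16, FDR = 0.0653) did not pass. Without control sample 1, Rela passed as higher (log2FC = 0.31, FDR = 2.22e-07).

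**Figure D3:**
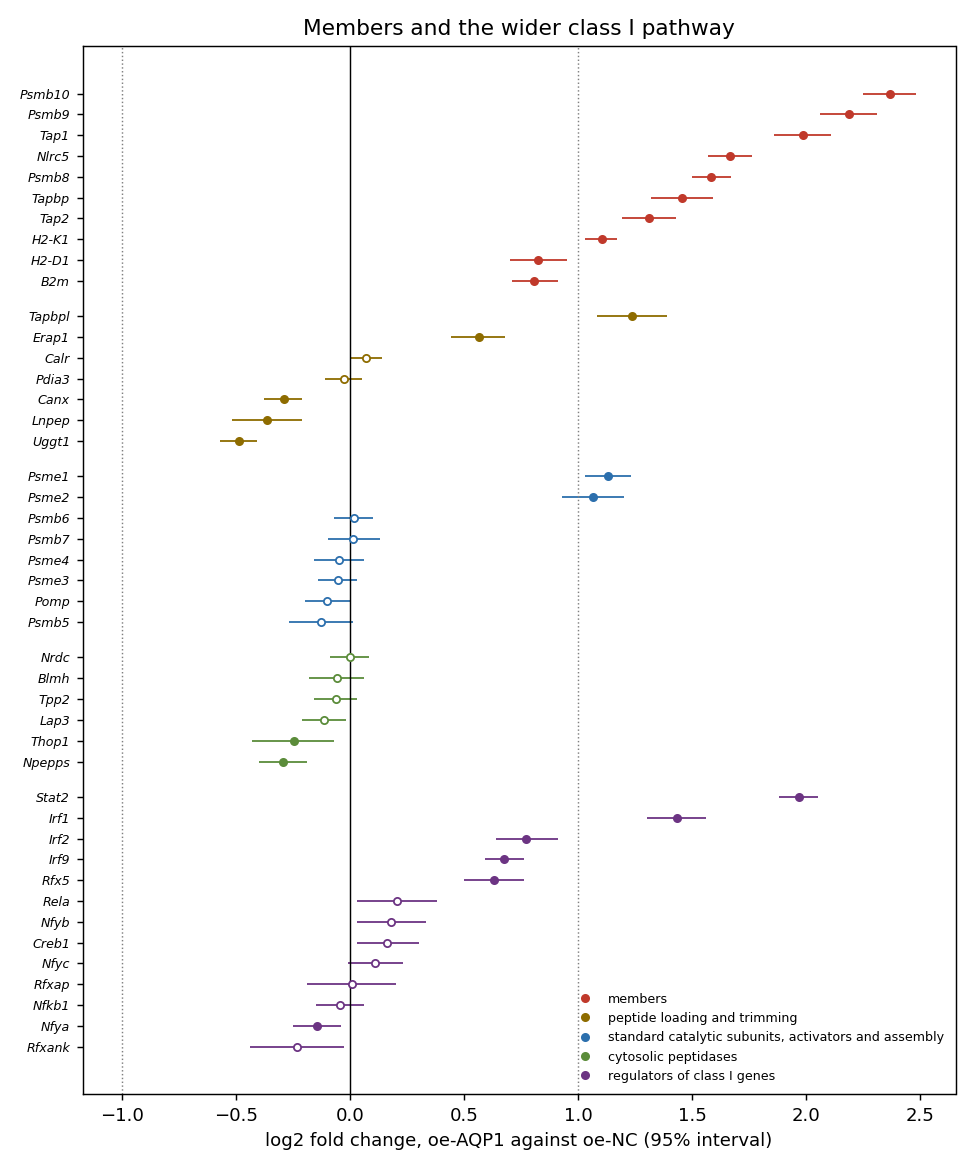
Log2FC (oe-AQP1 minus oe-NC) with its 95% interval for the 10 members and for genes from 4 lists of the wider class I pathway. Filled points passed an FDR of 0.05, open points did not, and dotted lines mark log2 fold changes of 1 and -1. The members lie between 0.81 and 2.37, while the standard catalytic subunits and cytosolic peptidases lie near or below 0. Psme1, Psme2, Tapbpl, Irf1 and Stat2, from the other lists and the proteasome activators, lie within the range of the members.

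Among 14 other class I genes, the less polymorphic relatives of the chains, 11 of the 12 tested were higher in oe-AQP1 cells, with a median log2FC of 1.46 (16.0% of all genes tested were called higher). They ranged from H2-M3 (62.9 ± 0.777 against 40.7 ± 0.783 CPM, log2FC = 0.63) to H2-T24 (9.16 ± 0.695 against 1.05 ± 0.153 CPM, log2FC = 3.10, FDR = 9.79e-07), and Mr1 (log2FC = 0.09, FDR = 0.27) did not pass. Without control sample 1, H2-Q7 crossed the fold threshold (log2FC = 0.92 with it and 1.05 without it). H2-Q4 and H2-Q6 share sequence with the chains, as given above, and sharing was not measured for the other genes of the list.

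The class II pathway, which loads peptides for CD4 T cells under the related transactivator CIITA, was sparsely expressed in both groups. Of its 12 listed genes 5 passed the filter on low counts, and Ciita itself had 7, 7 and 2 counts in oe-AQP1 and 1, 2 and 6 in oe-NC samples. The class II chain gene H2-Ab1 stood at 17.4 ± 0.482 against 16.4 ± 1.32 CPM (log2FC = 0.09, 95% interval -0.08 to 0.26, FDR = 0.414). Of the 5 tested, 3 rose (16.0% of all genes tested were called higher). Among them were Cd74, the invariant chain (43.9 ± 2.88 against 36.2 ± 0.549 CPM, log2FC = 0.28, FDR = 0.00526), and H2-Oa (5.47 ± 0.945 against 3.45 ± 0.231 CPM, log2FC = 0.64, FDR = 0.0129). The last was Ctss, a lysosomal protease (10, 13 and 17 counts against 2, 1 and 0, FDR = 0.00125). Ctss entered the test through its oe-AQP1 counts alone, so its place among the tested genes is tied to its direction. The stricter alternative filter excludes Ctss, and 2 class II genes were then called higher. Leaving out oe-AQP1 sample 3 also gave 2.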

How the data were processed

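The 10 members and all lists were chosen with earlier results of these data known. Per the labels, TruSeq libraries of total RNA were prepared. The series description states paired-end sequencing, and the study states alignment to GRCm39. The submitters' processing notes name fastp, HISAT2, featureCounts and Subread together with GRCm38 and mm10, and which of these made the table was not settled. The authors deposited expected counts per gene, estimated from aligned reads and not scaled between samples, and 31.1% of values above 0 lie more than 0.005 from a whole number. Of 78298 gene identifiers, 78168 were found in GENCODE M39 (GRCm39), the source of positions and lengths. Columns of group means were not used.

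Expected counts were rounded, filtered with filterByExpr (15522 genes kept), scaled by TMM (factors 0.9933 to 1.0062) and compared by limma-voom (limma 3.58.1, edgeR 4.0.16, R 4.3.3), the study's method. The code was tested on simulated data. CPM ratios were computed as differences of log2(CPM + 0.5). Precision rests on 3 samples a group and 18385714.02 to 21920898.67 counts a sample. Where replicates are not separate cultures, p-values measure technical spread only. All 10 members and Aqp1 are named. From each list the extremes of those called are named, or all where 5 or fewer were called, with the ratio partners and the genes nearest in profile. Other genes were named after their values had been seen. Some listed genes count in their list but are not reported here by name or in the plots.

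The alternatives tried were DESeq2 1.42.0, the quasi-likelihood test of edgeR, sample quality weights, 3 other scalings, 2 other filters, unrounded counts, a replicate block and leaving out each sample. Summed exon length and the motif spacing were added after the data had been seen.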

Additional observations from a re-analysis of the deposited data

How the results depend on the processing

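All 10 members were called higher and 8 were DEGs under each of the 10 alternative settings and each of the 6 fits that left out 1 sample, with a largest FDR of 6.01e-05. Leaving out single samples moved the log2FC between 0.78 and 0.90 for H2-D1, 0.75 and 0.84 for B2m, and 1.93 and 2.06 for Tap1. All 60 alternative values of the 6 ratios kept their direction, at p-values that this design cannot bring under 0.05. No pairing of the groups by sample number was seen. Deviations of same-numbered samples correlated at 0.015, -0.02 and -0.073, and samples 2 and 3 of oe-AQP1 correlated best with another number. All these correlations over all genes were small, so they cannot decide whether the numbers pair the groups. Over all genes, the 681 higher and 131 lower DEGs became 932 and 204 with no low-count filter and 416 and 66 with at least 10 counts in every sample, which test more and fewer genes. The replicate block left 10 members called and 8 DEGs. It gave 0 class I regulators called lower, where 1 was called without it, 1 renal marker called higher, where there was none, and 7 regulators called higher, where there were 6, a count also found with sample quality weights and without control sample 1 or 2. The 1 lower regulator, Nfya, was also lost with DESeq2 (0 called), with library size alone (0) and with no low-count filter (0), and between 0 and 1 were called when single samples were left out. With sample quality weights, 2 genes of the standard proteasome list passed as lower and 1 renal marker as higher. Leaving out single samples gave between 0 and 4 lower genes in the standard proteasome list, between 1 and 4 lower cytosolic peptidases, and between 0 and 1 higher renal markers, the highest values each without control sample 1. The cause was not tested. Depth was no limit for the members, each with at least 469 counts in every sample. How sequence shared with antisense RNA genes and other class I genes moved the heavy chain counts was not tested.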

Other observations

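The 5 genes outside every list whose profiles over the 6 samples lay nearest to the mean profile of the 10 members, among 14479 genes with a symbol, were Ifi35, 2310001H17Rik, Tmem106a, Isg20 and C2. Nearness was the root mean square distance of log2 CPM centred on the oe-NC mean, and it ran from 0.049 for Ifi35 to 0.062 for C2. Ifi35 and Isg20 are known as interferon-induced genes, and C2 encodes a complement component whose gene lies in the MHC. For Ifi35 the counts were 7356, 8023 and 7431 with AQP1 and 2395, 2176 and 2645 with the empty vector (log2FC = 1.59, FDR = 2.97e-10 by limma-voom). Isg20 had 1970, 2203 and 2064 counts against 635, 614 and 746 (log2FC = 1.57). C2 had 2310, 2472 and 2226 counts against 780, 671 and 754 (log2FC = 1.59). Tmem106a stood at 36.6 against 13.2 CPM and 2310001H17Rik at 9.61 against 3.16 CPM. The samples form 2 groups, so a near profile is largely a near fold change, and it says nothing of shared control.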
